A study of Mus musculus with 4 samples.

Results

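Messenger RNA of 7 genes linked to pluripotency, Pou5f1, Nanog, Epcam, L1td1, Sall4, Zfp42 and Esrrb, was followed in single cells of the embryonic mouse neocortex after a pulse of reprogramming factors. The 7 genes were taken by their symbols from 32285 gene rows and read as unique molecular identifiers (UMIs), each of which stands for 1 captured RNA molecule. Pou5f1, Nanog, Epcam and L1td1 were higher in the i4F-Nes libraries, Sall4 was low in both groups, and Zfp42 and Esrrb stayed near 0.

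The i4F-Nes embryos had the genotype Nestin-Cre;i4F;ROSA-STOP-rtTA, and their CTR littermates had i4F;ROSA-STOP-rtTA without the Cre. i4F is a cassette that doxycycline induces and that encodes the reprogramming factors Pou5f1 (Oct4), Sox2, Klf4 and Myc, and rtTA is the transactivator that doxycycline switches on, which here needs Cre to be expressed. Nestin-Cre acts in the nervous system, so induction was directed to cells of that lineage, while both groups carried the cassette and received the drug. The drinking water of the pregnant dams held doxycycline at 0.2 mg/ml over the 4 days between E10.5 and E14.5, and the rostral neocortex was collected at E15.5. Each group had 2 libraries, made with droplet capture and 3′ end counting. The number of embryos behind a library is not given in the sources used here, so p-values cover only the spread among these 4 libraries, which may be technical.

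Pou5f1 and Nanog encode transcription factors at the centre of the network that keeps embryonic stem cells and the early epiblast undifferentiated. Pou5f1 binds DNA together with Sox2, and many of their shared sites pair an octamer-like motif with a Sox motif. Sall4 is a zinc finger factor that works with them, Esrrb is an orphan nuclear receptor and Zfp42 (Rex1) a zinc finger protein of the naive state, Epcam is an adhesion molecule of epithelia and stem cells, and L1td1 is an RNA-binding protein derived from a LINE-1 element. In the developing cortex, radial glia are the stem cells, intermediate progenitors are their dividing offspring, and Pou5f1 and Nanog are normally off or very low in both. Low Pou5f1 counts in CTR cells, which also carry the cassette, are given below.

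Since Pou5f1 and Sox2 are DNA-binding factors of the cassette, the bases before the start sites are shown for 4 genes. Pou5f1 and L1td1 rose in count and hold neither searched motif there. Nanog rose and holds both, and Zfp42 stayed near 0 and holds 1 of them. Cassette and chromosomal Pou5f1 transcripts are not told apart, so its counts do not show whether this promoter was active. The motifs were the octamer-like TTTGCAT and the Sox motif ACAATG, searched on both strands, and the capitals mark their matches in each gene's first listed start site. All 4 stretches hold the 250 bases upstream of that start, 5′ to 3′ on the gene's strand, from RefSeq on GRCm38.p6.
Pou5f1, chr17:35505782-35506031, + strand: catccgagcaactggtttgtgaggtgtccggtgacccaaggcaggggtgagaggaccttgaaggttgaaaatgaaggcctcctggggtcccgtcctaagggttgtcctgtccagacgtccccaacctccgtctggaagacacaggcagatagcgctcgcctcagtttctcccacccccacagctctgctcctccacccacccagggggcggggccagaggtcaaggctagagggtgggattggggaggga
Nanog, chr6:122707239-122707488, + strand: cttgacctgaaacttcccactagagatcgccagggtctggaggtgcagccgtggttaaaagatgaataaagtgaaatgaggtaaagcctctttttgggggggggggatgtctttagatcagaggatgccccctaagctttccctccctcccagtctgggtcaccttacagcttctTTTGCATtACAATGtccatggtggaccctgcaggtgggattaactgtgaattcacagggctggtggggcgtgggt
L1td1, chr4:98726504-98726753, + strand: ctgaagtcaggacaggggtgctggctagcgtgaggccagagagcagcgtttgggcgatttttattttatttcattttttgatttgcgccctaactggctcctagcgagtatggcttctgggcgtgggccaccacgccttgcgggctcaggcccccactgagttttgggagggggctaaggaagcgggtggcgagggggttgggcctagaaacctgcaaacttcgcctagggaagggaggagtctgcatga
Zfp42, chr8:43307010-43307259, - strand: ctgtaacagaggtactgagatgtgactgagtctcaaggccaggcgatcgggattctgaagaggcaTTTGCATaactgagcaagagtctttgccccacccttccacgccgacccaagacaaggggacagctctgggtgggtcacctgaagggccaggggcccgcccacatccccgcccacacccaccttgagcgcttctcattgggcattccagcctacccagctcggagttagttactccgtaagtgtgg

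The Nanog sequence holds the octamer-like motif and the Sox motif side by side, 75 and 67 bases before the start. Searched as TTTGCAT, any 1 base and then ACAATG, on both strands, this pair of motifs was found in 2 of 32817 promoter windows of 300 bases (0.00609%). Both are overlapping windows of Nanog start sites that hold the same match, so 1 of 26994 genes had it. Other spacings and variant letters were not searched. TTTGCAT was in 4.63% of all windows and ACAATG in 12.6%. Zfp42 has TTTGCAT 185 bases before its start. A promoter window was listed for 6 of the 7 genes, Sall4 being the exception. The window of Epcam held neither motif, that of the first Esrrb start held ACAATG 32 bases after the start, and the second listed start of Pou5f1, which lies inside the gene, held ACAATG. A match describes the letters only, and factor binding was not measured.

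On GRCm38 with the GENCODE M21 annotation, Pou5f1 (ENSMUSG00000024406) lies at chr17:35506018-35510772 on the + strand, and Nanog (ENSMUSG00000012396) at chr6:122707489-122714633. Epcam (ENSMUSG00000045394) lies at chr17:87635979-87651129, L1td1 (ENSMUSG00000087166) at chr4:98726734-98738480 and Esrrb (ENSMUSG00000021255) at chr12:86361117-86521628, all on the + strand. Sall4 (ENSMUSG00000027547) lies at chr2:168748332-168767943 and Zfp42 (ENSMUSG00000051176) at chr8:43295063-43306980, both on the - strand. All are protein coding, and a UMI was counted for the whole gene, so exons and introns are not told apart here. Pou5f1 overlaps Gm19553 on the opposite strand and Sall4 overlaps Gm14261, and the strand setting of the counting is not given in the sources used here. GENCODE also lists the processed pseudogenes Nanog-ps1, Nanog-ps2 and Zfp42-ps1, for which the count tables held 0 rows. The counts name Pou5f1 as a gene and do not tell transcripts of the cassette from those of the chromosomal gene.

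The 4 libraries held 35255 barcodes, of which 26641 passed the filters on cells and doublets, between 6046 and 7498 per library. The median depth of kept cells was 11342 to 15140.5 UMIs in i4F-Nes and 11617 to 15134.5 in CTR, with replicate 1 deeper in both groups. Libraries shared 20 to 31 barcodes pairwise, at most 0.39% of the smaller library. Cells were sorted into classes by gates, which are fixed minimum numbers of detected marker genes. The labels call the material cortical neurons. The gates found 11225 upper-layer and 5420 deep-layer neurons, but also 4240 intermediate progenitors, 2331 radial glia and small numbers of interneurons, microglia and vascular cells. Another 2 gates were built from genes that lead cells found almost only in i4F-Nes. The Cytl1 gate needs 3 of Cytl1, Crip1, Tppp3, Cd109 and Anxa1 and held 406 and 340 i4F-Nes cells against 2 and 1 CTR cells. The Krt8 gate needs Dcx, 1 of Krt8, Crabp2 and Lgals7, and 3 of Ebf1, Ebf2, Ebf3, Eya2, Tafa1, Uncx and Thsd7a, and it held 252 and 294 i4F-Nes cells against 5 and 3 CTR cells. A further 34 and 8 i4F-Nes cells met both gates. None of the 7 genes was used in any gate. Both of these gates come from earlier results of these data, so the number of cells in them is a description.

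Over all kept cells, 4 of the 7 genes rose in i4F-Nes and none fell, where 2.28% of the 18547 genes tested changed and 2.26% rose. Levels are given as CPM, the UMIs of a gene scaled to the total UMIs of the same library or class, and tests are edgeR's quasi-likelihood F-test on UMIs summed per library, adjusted over all genes by Benjamini-Hochberg at 0.05. A sum over all cells does not separate more expressing cells from more RNA in each. Of the 7 genes, 6 passed the filter on low counts, and Zfp42 did not. Nanog and L1td1 passed it only through their i4F-Nes counts, so they could hardly have been called lower.

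Pou5f1, the factor that is also in the cassette, had 3897 and 846 UMIs in i4F-Nes replicates 1 and 2, or 30.4 and 10.8 CPM. In CTR replicates 1 and 2 it had 181 and 106 UMIs, or 1.87 and 1.30 CPM. Both i4F-Nes libraries lay above both CTR libraries, and replicate 1 was nearly 3 times replicate 2. The log2 fold change was 3.60 ± 0.553 (SE, n = 2 and 2), with an adjusted p of 0.0481 in edgeR's test. This call sits at the threshold: with RLE scaling the adjusted p was 0.05005 and with no filter on low counts 0.0507. Without CTR replicate 1 or 2 it was 0.383 or 0.556 in edgeR's test, at log2 fold changes of 3.89 and 3.40. Over the 11 alternatives the adjusted p of Pou5f1 ran from 2.74e-13 in DESeq2 to 1.00 in edgeR's test outside the Cytl1 and Krt8 gates.

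Nanog had 2077 and 543 UMIs in i4F-Nes, 16.2 and 6.92 CPM, and 10 and 3 UMIs in CTR, 0.103 and 0.0367 CPM. The groups did not overlap. Its log2 fold change was 7.21 ± 0.679 (SE), with an adjusted p of 0.0173 in edgeR's test. No CTR cell held more than 1 Nanog UMI, whereas the highest i4F-Nes cells held 40 and 18.

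L1td1, the RNA-binding member, had 1079 and 322 UMIs in i4F-Nes (8.41 and 4.10 CPM) and 4 and 0 in CTR (0.0413 and 0 CPM). Its log2 fold change of 7.97 ± 0.855 (SE) had an adjusted p of 0.0217 in edgeR's test. Like Nanog, L1td1 was close to absent from CTR: 4 of 6046 cells of replicate 1 held 1 UMI, and 0 of 6690 cells of replicate 2 did, where a floor of 3 counts puts the share of cells with a UMI at up to 0.0448%. This limits cells with a captured UMI, not cells that express the gene.

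Epcam, the adhesion molecule, had 1736 and 1874 UMIs in i4F-Nes (13.5 and 23.9 CPM) and 30 and 26 in CTR (0.310 and 0.318 CPM). Its log2 fold change was 5.81 ± 0.405 (SE) with an adjusted p of 0.0101 in edgeR's test. Unlike Pou5f1, Nanog and L1td1, Epcam was higher in i4F-Nes replicate 2 than in replicate 1.

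Sall4 had 175 and 85 UMIs in i4F-Nes, or 1.36 and 1.08 CPM, and 54 and 44 UMIs in CTR, or 0.558 and 0.539 CPM. The libraries did not overlap, but the log2 fold change of 1.07 ± 0.305 (SE) did not pass, with an adjusted p of 0.211 in edgeR's test. No cell in any library held more than 3 Sall4 UMIs.

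Zfp42 had 17 and 2 UMIs in i4F-Nes and 0 in either CTR library. Against 3 counts over the CTR group, its pooled level of 0.0919 CPM was at least 5.46-fold higher, and with 2 UMIs in replicate 2 nearly all of this came from replicate 1. Esrrb had 15 and 11 UMIs in i4F-Nes (0.117 and 0.140 CPM) and 12 and 13 in CTR (0.124 and 0.159 CPM), and the libraries overlapped. Its log2 fold change was -0.23 ± 0.451 (SE) with an adjusted p of 0.919 in edgeR's test. At this depth a change of Esrrb of a few UMIs per library was not detectable.

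**Figure D1:**
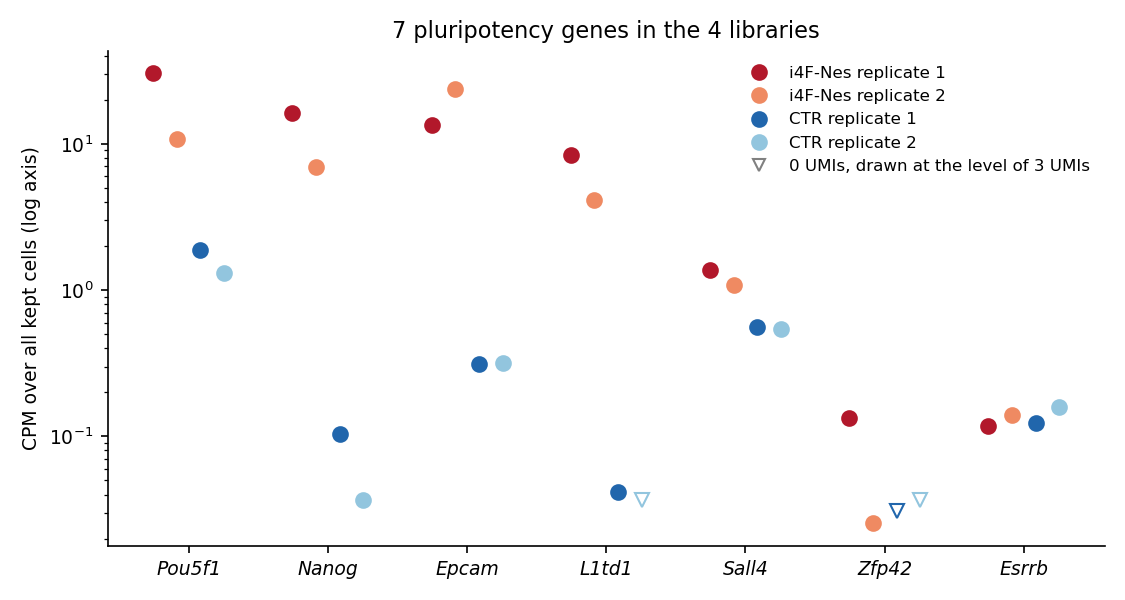
Level of each gene over all kept cells of each library in CPM on a log axis, 1 point per library, with triangles for libraries with 0 UMIs drawn at the level of 3 UMIs. The i4F-Nes points of Pou5f1, Nanog, Epcam and L1td1 lie between 4.10 and 30.4 CPM and above every CTR point of the same gene, and the 4 points of Esrrb lie between 0.117 and 0.159 CPM.

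The UMIs of the 4 genes that rose were concentrated in the Cytl1 gate, which was 5.41% and 5.31% of the kept cells of i4F-Nes replicates 1 and 2. That gate held 94.5% and 91.0% of the Nanog UMIs of the libraries, 96.0% and 96.6% of those of L1td1, 90.3% and 89.4% of those of Epcam and 78.1% and 75.8% of those of Pou5f1. Its cells were also deep, with median depths of 36388.5 and 28061.5 UMIs against 15377.5 and 14199 in radial glia of the same libraries. Levels in CPM divide by that depth, and shares of cells are therefore given after thinning too.

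Within that gate, Pou5f1 reached 185 and 62.0 CPM in i4F-Nes replicates 1 and 2, and Nanog 119 and 47.8 CPM. L1td1 reached 62.9 and 30.1 CPM. Epcam reached 95.1 and 162 CPM, again in the opposite order of replicates. These are levels in 2 libraries with no CTR counterpart, since CTR held 3 such cells in all, and no test was made.

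The Krt8 gate, the other class found nearly only in i4F-Nes, had Pou5f1, Nanog, L1td1 and Epcam at lower levels than the Cytl1 gate in both libraries. Pou5f1 stood there at 54.2 and 9.38 CPM, from 327 and 47 UMIs. Nanog stood at 2.32 and 3.19 CPM, L1td1 at 1.49 and 0.998 CPM and Epcam at 2.32 and 13.6 CPM. In the cells that met both gates, Pou5f1 was at 173 and 118 CPM, the second from 26 UMIs in 8 cells, and Nanog was at 32.6 CPM in replicate 1.

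**Figure D2:**
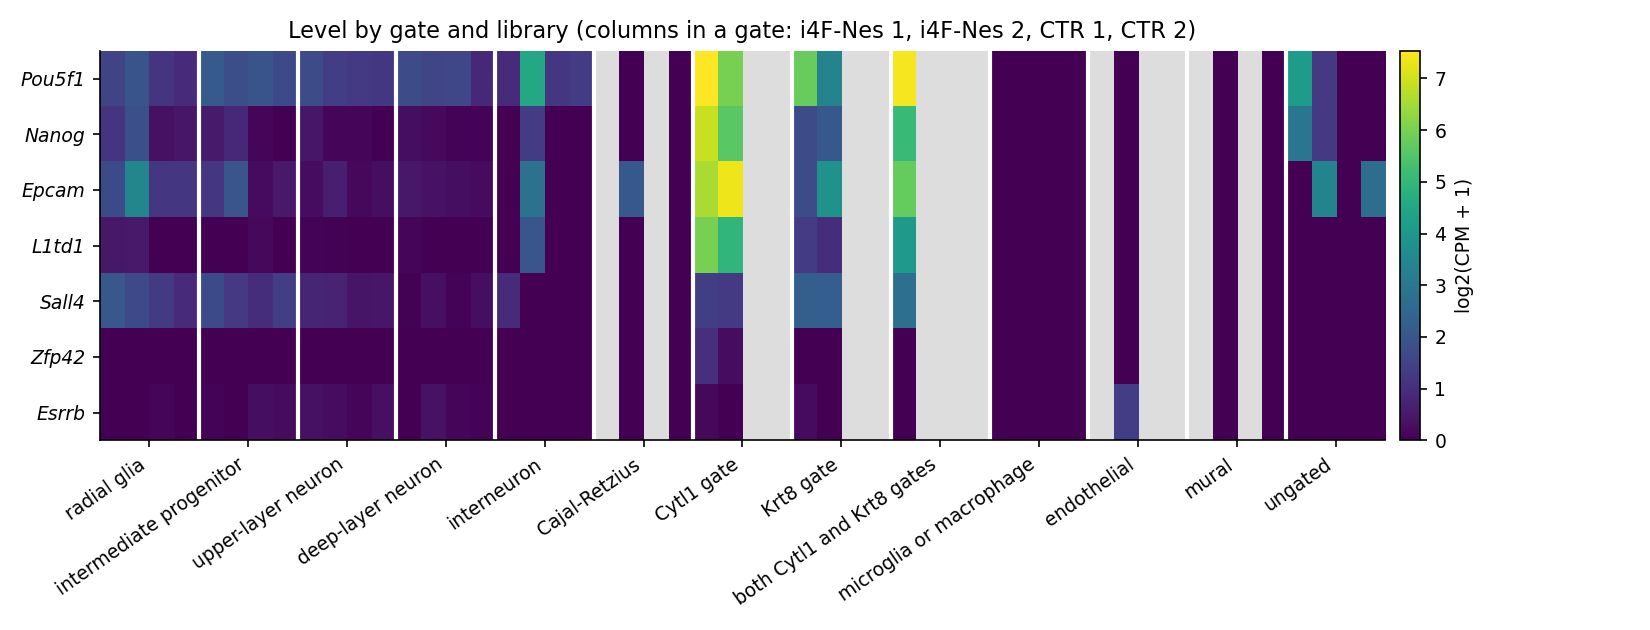
Level of each gene as log2(CPM + 1) by gate and library, with 4 columns per gate in the order i4F-Nes replicate 1 and 2, then CTR replicate 1 and 2, and grey where a library had fewer than 20 cells. Pou5f1, Nanog, Epcam and L1td1 are bright in the Cytl1 gate, Pou5f1 is bright in the Krt8 gate at 54.2 and 9.38 CPM, and Zfp42 and Esrrb are dark in every class.

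Within the Cytl1 gate the 4 genes were uneven from cell to cell. Without thinning, Nanog was detected in 80.3% of 406 cells (exact 95% binomial interval 76.1% to 84.1%) of replicate 1 and in 46.8% of 340 cells (41.4% to 52.2%) of replicate 2. Pou5f1 was detected in 58.4% (53.4% to 63.2%) and 32.4% (27.4% to 37.6%), and L1td1 in 55.7% (50.7% to 60.6%) and 27.6% (23.0% to 32.7%). Epcam was detected in 61.1% (56.2% to 65.9%) and 60.0% (54.6% to 65.2%), which differed little between the replicates. These intervals cover counting error only.

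After each cell was thinned to 4000 UMIs the shares fell but kept the difference between replicates for Nanog, Pou5f1 and L1td1. Nanog was then in 32.5% and 10.3% of the cells, Pou5f1 in 32.0% and 15.0%, and L1td1 in 16.5% and 8.82%, with intervals that did not overlap between the replicates. Those of L1td1 were the closest, at 13.0% to 20.5% and 6.03% to 12.4%. Epcam was in 21.7% and 27.4% of the thinned cells, with overlapping intervals. No cell of the gate was too shallow for this thinning.

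As a background, upper-layer neurons of the same i4F-Nes libraries had a Nanog UMI in 0.565% and 0.0726% of cells, an L1td1 UMI in 0.0707% and 0.0363%, an Epcam UMI in 0.247% and 0.327% and a Pou5f1 UMI in 3.50% and 1.74%, at median depths of 14064 and 10397 UMIs. The 142 cells of the microglia gate, which come from outside the neural lineage, held 0 UMIs of all 7 genes in each library. With 23 to 50 such cells per library and median depths of 2214 to 6996 UMIs, the floor of 3 counts puts the shares of cells with a UMI at up to 6% to 13.0%, which does not limit expression below capture.

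**Figure D3:**
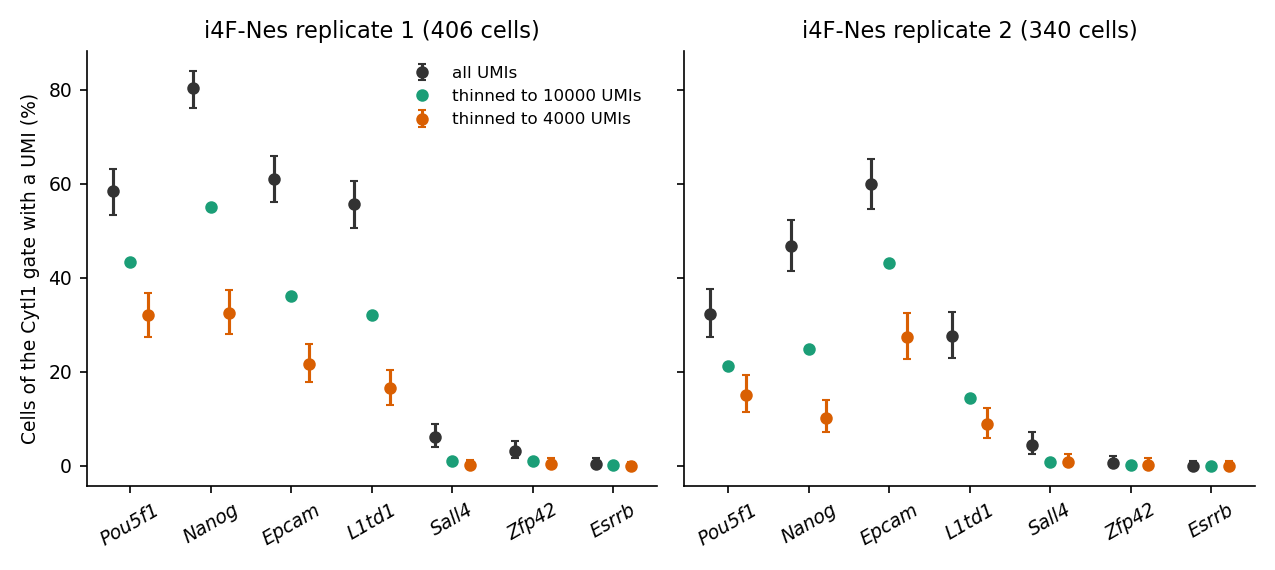
Share of cells of the Cytl1 gate with at least 1 UMI of each gene in i4F-Nes replicate 1 (406 cells) and replicate 2 (340 cells), from all UMIs and after thinning each cell to 10000 or 4000 UMIs, with exact 95% binomial intervals on the first and the last. Pou5f1, Nanog, Epcam and L1td1 lie between 27.6% and 80.3% with all UMIs, and Sall4, Zfp42 and Esrrb lie at or below 6.16%.

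A few cells carried much of each total. In the Cytl1 gate the median cell of replicate 1 held 1 Pou5f1 UMI and that of replicate 2 held 0, while the highest cells held 78 and 40. The 41 and 34 cells with the most Pou5f1, the highest 10% of the gate, held 51.8% and 74.3% of its Pou5f1 UMIs. For L1td1 the highest 10% held 54.8% and 76.2%, for Epcam 55.7% and 63.8%, and for Nanog 38.4% and 55.3%. The highest Epcam cells held 65 and 93 UMIs, and at least 5 Epcam UMIs were found in 25.1% and 25.9% of the cells.

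Sall4, Zfp42 and Esrrb stayed low in the same cells. Cells of the Cytl1 gate had Sall4 at 1.64 and 1.45 CPM, next to 3.82 and 3.79 CPM in the Krt8 gate and 3.15 and 2.15 CPM in i4F-Nes radial glia. The cells that met both gates had it at 5.76 and 4.54 CPM, from 9 UMIs and 1 UMI. Split by Pou5f1 within the Cytl1 gate, Sall4 stood at 2.27 CPM with and 0.509 CPM without it in replicate 1, from 24 and 3 UMIs. In replicate 2 it stood at 1.99 and 1.11 CPM, from 8 and 7 UMIs. The cells with Pou5f1 were also deeper in both replicates. In the Krt8 gate the same split gave 5.32 and 3.03 CPM in replicate 1 and 10.9 and 2.75 CPM in replicate 2, each from 12 UMIs or fewer. Zfp42 was read only in the Cytl1 gate, with 17 UMIs in 13 of 406 cells of replicate 1 and 2 UMIs in 2 of 340 cells of replicate 2. Of the 17 UMIs, all lay in cells with a Nanog UMI and with an L1td1 UMI, and 16 in cells with a Pou5f1 UMI, but those cells were also deeper. Esrrb had 2 and 0 UMIs in the gate, and the 0 allows a level of up to 0.290 CPM in replicate 2.

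Pou5f1, Nanog, Epcam and L1td1 were found together in cells more often than the product of their single shares gives. This was measured in the Cytl1 gate with all cells thinned to 4000 UMIs, as a description of each library, since cells of a library are not replicates. Pou5f1 and Nanog were both found in 62 cells of replicate 1, where the product gives 42.3, and in 13 cells of replicate 2, where it gives 5.25. The ratios were 1.47 and 2.48.

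Pou5f1 and L1td1 had the largest ratios of the 6 pairs in both libraries. They were both found in 45 cells of replicate 1 against 21.5 from the product, a ratio of 2.10, and in 16 cells of replicate 2 against 4.50, a ratio of 3.56. Of the cells with Pou5f1, 34.6% and 31.4% had L1td1, and of the cells without it 7.97% and 4.84% did. Nanog and L1td1 had ratios of 1.51 and 2.91.

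The pairs with Epcam had ratios between 1.24 and 1.51. The ratio was 1.24 and 1.43 for Pou5f1 and Epcam, 1.33 and 1.25 for Nanog and Epcam, and 1.51 and 1.34 for L1td1 and Epcam. With 10000 UMIs per cell the ratio of Nanog and Epcam was 1.14 as a mean over the replicates, and all 6 pairs stayed above 1 in both libraries.

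**Figure D4:**
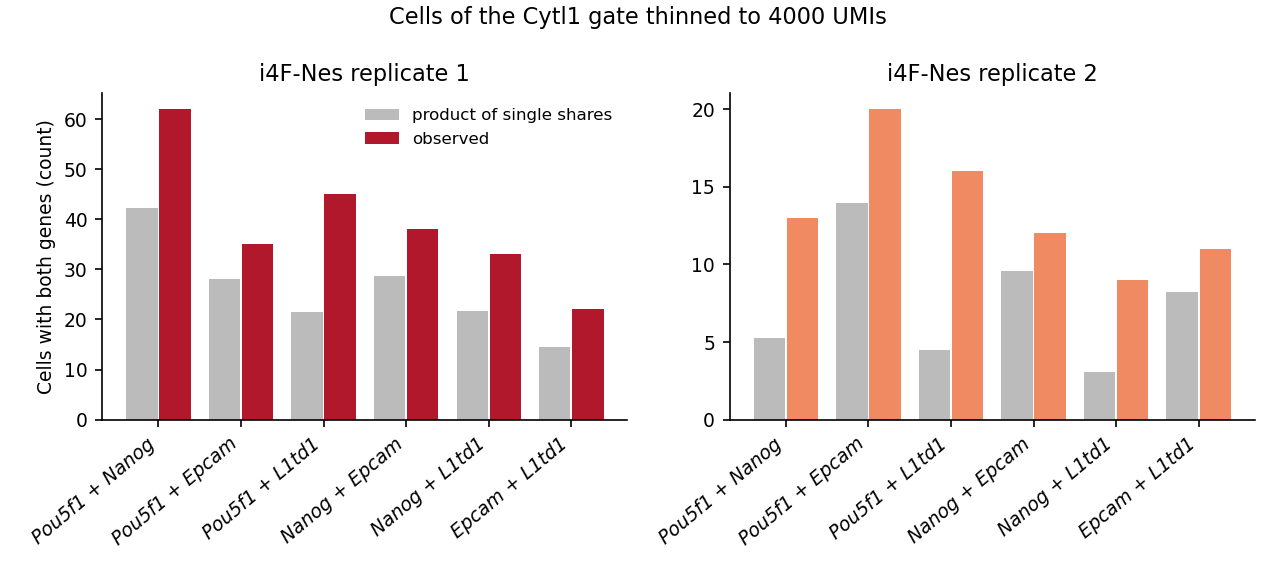
Cells of the Cytl1 gate, thinned to 4000 UMIs, that held both genes of a pair (coloured bars) beside the count that the product of the single shares gives (grey bars), in i4F-Nes replicates 1 and 2. The observed count is above the grey bar for all 6 pairs in both libraries, from 22 to 62 cells in replicate 1 and from 9 to 20 cells in replicate 2.

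Counted cell by cell without thinning, all 4 of Pou5f1, Nanog, Epcam and L1td1 were present in 134 cells (33.0%) of the Cytl1 gate of replicate 1 and in 34 cells (10.0%) of replicate 2. At least 2 were present in 75.6% and 49.1%, and none in 9.36% and 18.2%. In the Krt8 gate at least 2 were present in 6.35% and 4.08% of the cells, and all 4 in 0 cells. Among all i4F-Nes cells outside these gates, 6 of 6806 and 15 of 5765 cells had at least 2, of which 4 and 11 were radial glia. In CTR, 1 of 6039 and 0 of 6686 such cells had at least 2.

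**Figure D5:**
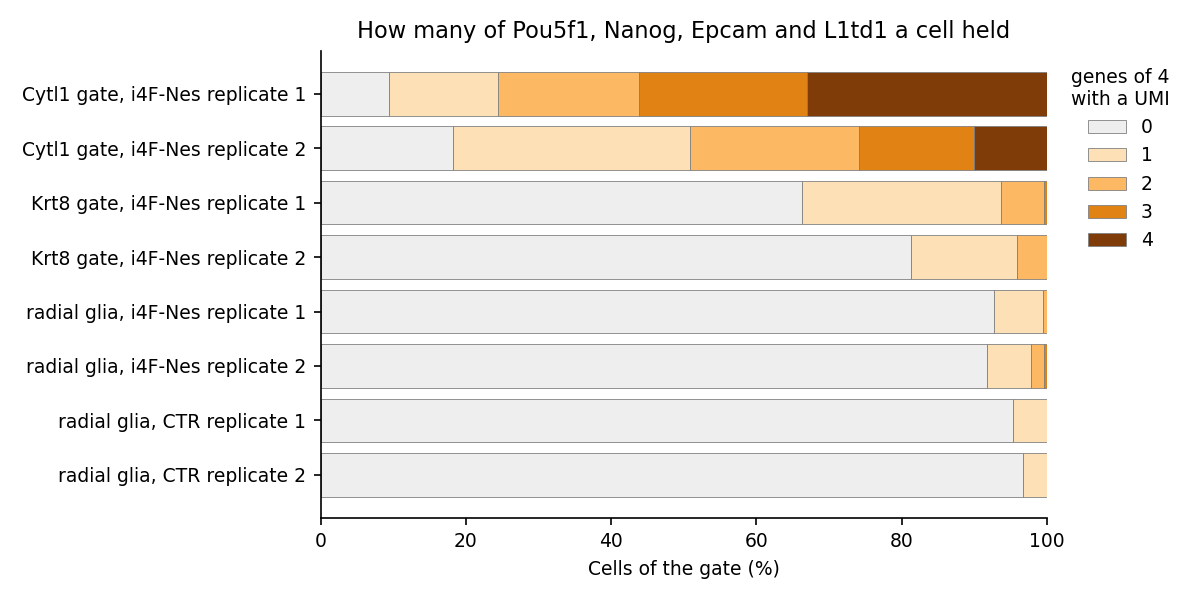
Share of cells by how many of Pou5f1, Nanog, Epcam and L1td1 they held with at least 1 UMI, without thinning, for 3 gates and each library with enough cells. All 4 genes are present in 33.0% and 10.0% of the Cytl1 gate and in none of the Krt8 gate or radial glia cells.

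Cells of the Cytl1 gate with Pou5f1 also had higher levels of Nanog, L1td1 and Epcam in CPM, a level relative to the UMIs of those cells. In the Cytl1 gate of replicate 1, Nanog stood at 152 CPM in the 237 cells with Pou5f1 and at 60.9 CPM in the 169 cells without it. In replicate 2 Nanog stood at 83.4 and 25.03 CPM. L1td1 stood at 84.7 and 23.7 CPM in replicate 1, and at 63.6 and 8.71 CPM in replicate 2. Epcam stood at 123 and 44.4 CPM, and at 256 and 102 CPM. The cells with Pou5f1 had median depths of 40161 and 33849.5 UMIs and those without it 32030 and 25048, and the part of depth in these differences was not tested. In the Krt8 gate of replicate 1 Nanog went the other way, at 1.93 CPM with Pou5f1 and 2.53 CPM without it, from 4 and 10 UMIs. In replicate 2 it stood there at 15.6 and 1.37 CPM, from 10 and 6 UMIs. L1td1 and Epcam were higher with Pou5f1 in the Krt8 gate of both replicates.

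Over the cells of the Cytl1 gate, the gene most like Pou5f1 among 11235 genes was L1td1, with Pearson's r of 0.64 over 406 cells of replicate 1 and 0.70 over 340 cells of replicate 2. The likeness is that of log(1 + UMIs per 10000), ranked by the smaller of both r. Tppp3, which is also a gate gene, Tfap2d, Nanog (0.50 and 0.49) and Pmaip1 followed, and Epcam ranked 52 (0.41 and 0.27). For Nanog the order was Cdc42ep5 (0.56 and 0.51), Pou5f1, Tppp3, S100a11 and Pmaip1, with L1td1 at rank 33 and Epcam at rank 171. All these cells share their library and a wide range of depths, and the values are descriptions.

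Outside the Cytl1 and Krt8 gates 5 of the 7 genes could be tested, and none passed. With those cells removed, edgeR's test called 0 of 18094 genes (0%), with 464 at an unadjusted p under 0.05. The log2 fold change of Pou5f1 was then 0.48 ± 0.303 (SE), that of Nanog 2.68 ± 0.558 and that of Epcam 2.06 ± 0.600, each with an adjusted p of 1.00 in edgeR's test. This split of the cells was added after the data were seen. Among these cells Nanog met the filter on low counts only through i4F-Nes, so it could hardly have been called lower.

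In radial glia, the cortical stem cells, which express Nestin, Nanog had 16 and 18 UMIs in i4F-Nes (1.26 and 2.58 CPM) against 3 and 2 UMIs in CTR (0.256 and 0.364 CPM). Epcam reached 2.21 and 10.0 CPM in the i4F-Nes libraries against 1.28 and 1.27 CPM in the CTR libraries, and 1 radial glia cell of replicate 2 held 14 of its 70 UMIs. Pou5f1 stood at 1.89 and 2.87 CPM against 1.19 and 0.909 CPM in CTR, Sall4 at 3.15 and 2.15 against 1.45 and 0.909 CPM, and L1td1 at 0.394 and 0.431 CPM against 0 UMIs. L1td1 was too low to be tested, and none of the other 4 passed.

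The log2 fold changes in radial glia were 2.58 ± 0.722 (SE) for Nanog, 2.19 ± 0.761 for Epcam, 1.08 ± 0.5004 for Pou5f1 and 1.09 ± 0.473 for Sall4, with adjusted p of 0.717, 0.912, 0.970 and 0.970 in edgeR's test. That test called 1 of 13589 genes in radial glia (0.00736%), and 683 at an unadjusted p under 0.05. Nanog met the filter on low counts in radial glia only through i4F-Nes, so it could hardly have been called lower. With 1 more marker required in every gate, Nanog passed with an adjusted p of 0.0469 in edgeR's test, at a log2 fold change of 3.95. Epcam passed with no filter on low counts, without i4F-Nes replicate 1 and without CTR replicate 2, with adjusted p of 0.000275, 0.00115 and 0.0166 in edgeR's test. Without i4F-Nes replicate 2 the log2 fold change of Epcam was 0.74 with an adjusted p of 1.00. Over all alternatives the adjusted p of Nanog ran from 0.0469 to 1.00 and that of Epcam from 0.000275 to 1.00.

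Radial glia of i4F-Nes replicate 2 also had Krt8 at 31.3 CPM and Krt18 at 9.18 CPM, against 5.60 and 0.158 CPM in replicate 1 and 0 UMIs of Krt8 in CTR. Krt8 is a gene of the Krt8 gate. The part of such keratin-positive cells in the Epcam level of that library was not tested.

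In intermediate progenitors, CTR itself had the highest Pou5f1 levels of the tested classes, with 2.90 and 2.26 CPM, while i4F-Nes had 3.42 and 2.52 CPM. These came from 61 and 26 of the CTR cells, most with 1 UMI, and the log2 fold change was 0.18 ± 0.329 (SE). It turned to -0.05 without i4F-Nes replicate 1. Epcam reached 1.30 and 2.97 CPM in the i4F-Nes libraries against 0.173 and 0.435 CPM in the CTR libraries, with 12 of the 26 UMIs of i4F-Nes replicate 2 in 1 cell. In this class Epcam met the filter on low counts only through i4F-Nes, so it could hardly have been called lower. Its log2 fold change of 2.85 ± 0.698 (SE) had an adjusted p of 0.571 in edgeR's test, which called 0 of 14054 genes (0%), with 553 at an unadjusted p under 0.05 and 43 called by DESeq2. Epcam passed there with no filter on low counts and without i4F-Nes replicate 1 or CTR replicate 2, at adjusted p of 0.00155, 0.0339 and 0.00630 in edgeR's test, and its adjusted p ran from 0.00155 to 1.00 over all alternatives.

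In neurons the levels were low in both groups, and none of the genes that could be tested passed. Pou5f1 in upper-layer neurons stood at 2.34 and 1.57 CPM with the Cre and at 1.45 and 1.35 CPM without it (log2 fold change 0.44 ± 0.313, SE). In deep-layer neurons the levels were 2.28 and 1.96 CPM with it and 2.05 and 0.784 CPM without it (log2 fold change 0.55 ± 0.495, SE). Adjusted p were 1.00 in edgeR's test, which called 0 of 15445 genes in upper-layer neurons (0%) and 0 of 14171 in deep-layer neurons (0%), with 252 and 244 at an unadjusted p under 0.05 and 9 and 28 called by DESeq2. Nanog had 18 UMIs in all upper-layer neurons of i4F-Nes and 8 in all deep-layer neurons, against 4 and 2 in CTR. L1td1 had 3 and 2 UMIs in those i4F-Nes neurons and 0 in CTR.

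Interneurons reach the cortex from outside it, and none of the 7 genes passed the filter on low counts there. The test called 0 of 9910 genes (0%), with 332 at an unadjusted p under 0.05 and 3 called by DESeq2. Pou5f1 stood at 22.4 CPM in i4F-Nes replicate 2 and at 0.919 CPM in replicate 1, and 14 of the 15 UMIs behind the first value lay in 1 cell. In that library 1 interneuron held all of Pou5f1, Nanog, Epcam and L1td1.

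CTR cells showed which of the 7 genes have a low level without Cre. Over all kept CTR cells Pou5f1 was found in 2.88% and 1.58% of cells with at most 3 UMIs in a cell, and after thinning to 4000 UMIs in 0.833% and 0.511%. Sall4 in CTR was found mainly in progenitors, at 1.45 and 0.909 CPM in radial glia and 0.994 and 1.65 CPM in intermediate progenitors, against 0.336 and 0.380 CPM in upper-layer neurons. Epcam in CTR was at 1.28 and 1.27 CPM in radial glia and at or below 0.435 CPM in the other tested classes. Over all kept cells, the mean share of cells with a Nanog UMI was 4.22% ± 1.60 (SD, n = 2) in i4F-Nes and 0.105% ± 0.0852 (SD, n = 2) in CTR, with p = 0.333 in an exact two-sided permutation test, which is the smallest that 2 libraries against 2 allow.

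Other genes of the pluripotency network were read against the 2.26% of all genes that rose over all kept cells. Of 18 further pluripotency transcription factors, 12 passed the filter on low counts and 0 were called in either direction over all kept cells in edgeR's test, with a median log2 fold change of 0.50, where the median of all genes was -0.02. Sox2 and Klf4, which are also in the cassette, had log2 fold changes of 0.06 ± 0.274 and -0.25 ± 0.424 (SE). Stat3, the effector of LIF signalling, had 1.09 ± 0.214 with an adjusted p of 0.0867 in edgeR's test. Zfp281 had 0.02 ± 0.207 and Klf2 -0.66 ± 0.773. In the Cytl1 gate Stat3 stood at 64.4 and 55.4 CPM against 11.9 and 11.6 CPM in CTR radial glia, and Sox2 at 145 and 187 CPM against 461 and 423 CPM. Stat3 was higher still in the Krt8 gate, at 85.9 and 61.9 CPM, where Sox2 stood at 12.1 and 14.2 CPM.

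Of 20 RNA-binding, secreted and other markers of pluripotent cells, 14 passed the filter, 2 rose and 0 fell, where 2.26% of all genes rose, with a median log2 fold change of 0.84. Lefty1, a secreted inhibitor of Nodal signalling, had 4383 UMIs in i4F-Nes and 17 in CTR, with a log2 fold change of 7.52 ± 0.739 (SE) and an adjusted p of 0.0183 in edgeR's test. Gdf3, a ligand of the TGF-beta family and named here because it passed, had 321 UMIs against 3, with an adjusted p of 0.0126 in edgeR's test. Lefty1 and Gdf3 passed the filter on low counts only through i4F-Nes, so they could hardly have been called lower. Lefty1 was higher in the Krt8 gate, at 396 and 64.7 CPM, than in the Cytl1 gate, at 24.0 and 31.1 CPM, while Gdf3 stood at 13.2 and 9.19 CPM in the Cytl1 gate. Lin28b, Cd9 and Tet1 had log2 fold changes of 1.46 ± 0.2501, 1.11 ± 0.174 and 0.10 ± 0.128 (SE), with adjusted p of 0.0618, 0.0512 and 0.868 in edgeR's test.

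The paralogs of Sall4 are cortical genes. Sall1, Sall2 and Sall3 all passed the filter and 0 of 3 were called, with log2 fold changes of 0.43, 0.21 and 0.62. Of 10 epithelial genes, chosen because Epcam is one, 7 passed the filter, 4 rose and 0 fell, where 2.26% of all genes rose. They were Krt8, Krt18, Cdh1 and Cldn7, named because they passed, with 44993, 1827, 344 and 209 UMIs in i4F-Nes and 5, 7, 1 and 5 in CTR, and Krt8 is also a gate gene. The median log2 fold change was 7.69, or 5.38 with Cldn4, which had 0 UMIs in CTR, at its lower bound. With so few CTR UMIs, those 4 genes and Cldn4 passed the filter only through i4F-Nes. They could hardly have been called lower, so the counts and the median are descriptions. In the Cytl1 gate Cdh1, the E-cadherin of epithelia, stood at 14.1 and 5.80 CPM.

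Markers of other lineages that can express these genes were counted in the same way. Of 6 germ cell markers 5 passed and 0 were called, of 6 endoderm markers 2 passed and 0 were called, and of 5 mesoderm markers 1 passed and 0 were called. Of 6 trophectoderm markers 3 passed and 1, Krt18, rose, where 2.26% of all genes rose. Krt18 and Krt7, with 7 and 2 UMIs in CTR, passed the filter only through i4F-Nes and could hardly have been called lower. The trophectoderm count and median are therefore descriptions. Krt18 is also in the epithelial list, and Tfap2c is in both the germ cell and the trophectoderm list, so the lists are not independent. The median log2 fold changes of these lists were 0.18, 1.84, -0.33 and 5.42. In the Cytl1 gate the endoderm markers summed to 0.303 and 0.0967 CPM and the mesoderm markers to 0.121 and 0.193 CPM, with Foxa2, Sox17, T and Mixl1 at 0 UMIs. Germ cell markers summed to 160 and 145 CPM there, from Tfap2c and Kit, while Dazl had 0 UMIs and Ddx4 0 and 1. Tfap2c and Kit are also found in control cortex, at 25.2 and 25.5 CPM over all kept CTR cells. Compared with radial glia, Kit was over 2-fold higher in the Cytl1 gate and Tfap2c was not. Cdx2, which defines trophectoderm, had 0 UMIs in all 4 libraries.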

How the data were processed

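The deposited values were UMI counts per gene and barcode, made by the authors with cellranger 7.0.1, per the file headers, on mm10, per the submitters' processing notes. The deposited counts were used as they stand. Barcodes with at least 1000 UMIs, 500 genes and at most 10% mitochondrial UMIs were kept, and Scrublet's top-scoring barcodes (scanpy 1.11.5, 0.8% per 1000 barcodes) were removed as likely doublets, 2031 in all. Cells were classed by gates on marker UMIs. UMIs were summed per library and class with at least 20 cells in each library, and tested with edgeR 4.0.16 (TMM scaling, filterByExpr, robust quasi-likelihood F-test, limma 3.58.1, R 4.3.3). The alternatives were DESeq2 1.42.0, RLE scaling, no filter on low counts, each library left out, a replicate block, no doublet removal, at least 2000 UMIs, 1 more marker per gate and other depths of thinning. The edgeR step was tested on simulated data. Cells were thinned with a fixed seed to 4000 UMIs, leaving out shallower ones. Exact intervals (Clopper-Pearson, 95%) and floors of 3 counts cover counting error only. Python 3.11.15 with numpy 2.4.6, scipy 1.17.1 and matplotlib 3.10.9 was used.

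The 7 genes, the gates and the lists (pluripotency factors, other pluripotency markers, Sall family, epithelium, germ cell, endoderm, trophectoderm, mesoderm) were chosen with earlier results of these data known. All 7 genes were named whatever their values. From a list, the up to 4 genes with the highest mean CPM were named, and Klf4, Gdf3 and other list genes that passed the test were added after their values were seen.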

Additional observations from a re-analysis of the deposited data

Results flagged for a closer look

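The 2031 barcodes removed as likely doublets were not used in the comparisons, and in i4F-Nes they carried the same genes as the kept cells. In those barcodes Pou5f1 stood at 27.5 and 12.1 CPM in i4F-Nes replicates 1 and 2, against at most 2.34 CPM in a CTR library. Nanog stood at 17.8 and 7.20 CPM against at most 0.142 CPM in CTR. Epcam stood at 19.2 and 25.4 CPM against at most 0.639 CPM, and L1td1 at 8.83 and 4.11 CPM against 0 UMIs. Sall4 stood at 1.88 and 1.78 CPM against at most 0.543 CPM. The share of true doublets among these barcodes was not tested.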

How the results depend on the processing

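With 2 libraries per group, counts of called genes moved with the setting, while of 175 alternative values for the 7 genes in the fitted classes 159 kept their direction and side of the threshold, 8 gained and 7 lost a call and 1 turned its direction, Pou5f1 in intermediate progenitors, at 0.18 with all libraries, -0.053 without i4F-Nes replicate 1 and up to 0.35 with another library left out. Over all kept cells 423 genes were called, 1146 with DESeq2, 808 with no filter on low counts, 584 to 782 with 1 library left out and 0 outside the Cytl1 and Krt8 gates. In radial glia 1 gene was called, 71 with DESeq2, 322 with no filter, 54 to 278 with 1 library left out, 23 with 1 more marker and 0 with no doublet removal. In intermediate progenitors 0 genes were called, 43 with DESeq2, 176 with no filter, 18 to 204 with 1 library left out, 15 with 1 more marker and 1 with no doublet removal. In deep-layer neurons 0 genes were called, 28 with DESeq2, 12 with no filter and 2 to 178 with 1 library left out. In upper-layer neurons 0 genes were called, 9 with DESeq2 and 0 to 5 with 1 library left out (1, 1 and 5 without i4F-Nes replicate 2, CTR replicate 1 and CTR replicate 2). In interneurons 0 genes were called, 3 with DESeq2, 43 with no filter, 7 with 1 more marker and 0 to 146 with 1 library left out (3 without CTR replicate 2). A group left with 1 library is assumed to vary like the other. The replicate numbers only name the libraries: the correlation of deviations of same-numbered libraries was 0.31 over all kept cells and 0.19 to 0.64 in the classes, and 2 pairs do not establish a pairing. With the replicate number as a block, 1416 genes were called over all kept cells, 0 in radial glia, 223 in intermediate progenitors, 243 in deep-layer neurons, 923 in upper-layer neurons and 48 in interneurons, and under the block Epcam passed in intermediate progenitors with an adjusted p of 0.0168 in edgeR's test. The shares of cells in the Cytl1 gate, given here as means over both libraries, moved with depth and with the number of UMIs required. The shares for at least 2 UMIs are those of cells thinned to 4000 UMIs. Without thinning, 67.2% and 27.4% of the gate's cells in i4F-Nes replicates 1 and 2 held at least 2 Nanog UMIs. The Pou5f1 share was 23.5% at 4000 UMIs per cell and 45.4% without thinning, and 12.3% for at least 2 UMIs. Nanog was at 21.4%, 39.95% at 10000 UMIs, 63.5% without thinning and 4.73% for at least 2 UMIs, Epcam at 24.5%, 39.7%, 60.5% and 10.8%, and L1td1 at 12.7%, 23.3%, 41.7% and 3.37%. L1td1 in the Krt8 gate was at 1.25 CPM, and at 1.72 CPM with 1 more marker. The co-detection ratio at 10000 UMIs was 1.14 for Nanog and Epcam and 1.28 for Epcam and L1td1, against 1.29 and 1.43 at 4000. The cause of these moves was not tested.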
